A study of Mus musculus with 51 samples.

Results

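The regions described here are stretches of femur DNA that carried strong 5-hydroxymethylcytosine (5hmC) signal in control mice and still carried a 5hmC peak in mice lacking Tet1 and Tet2 in limb mesenchyme. 5hmC was measured by hMeDIP-seq, in which DNA sheared by sonication is precipitated with a 5hmC antibody and sequenced, and a peak is a stretch where the fragments pile up above the local background. A region was taken as kept when a peak of the pooled Ctrl list on chromosomes 1 to 19 had a -log10 q of at least 10 and overlapped, by at least 1 bp, a peak of the pooled Tet1/2 cKO list with a -log10 q of at least 5. Of 257305 Ctrl peaks on these chromosomes, 129008 were strong by this measure and 65923 of them were kept. Another 29165 strong Ctrl regions overlapped only Tet1/2 cKO peaks under the limit and are called weak here, and 33920 overlapped no Tet1/2 cKO peak and are called lost.

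Ctrl mice expressed Prrx1-Cre alone, and Tet1/2 cKO mice carried Prrx1-Cre with Tet1 flox/flox and Tet2 flox/flox. Both were C57BL/6 mice of 11 weeks on a standard diet, with 3 femurs per group for hMeDIP-seq and 3 for RNA-seq. Prrx1-Cre recombines in the limb mesenchyme, from which osteoblasts, chondrocytes and marrow stroma arise, and does not recombine in most blood cells. Most blood cells left in a femur of the Tet1/2 cKO group would thus have intact Tet1 and Tet2. Tet3 was not targeted. DNA came from decalcified femurs, and RNA from femurs that had been flushed of marrow and minced. RNA of Tet1 cKO and Tet2 cKO femurs (Prrx1-Cre with Tet1 flox/flox or Tet2 flox/flox, 11 weeks, 3 femurs each) entered the same RNA fit. Other peak lists came from femurs of 20-week-old homozygous Gulotm1Mae mice (Gulo-/-), which cannot make vitamin C, either given VitC at 3.3 g/L in the drinking water throughout (VitC+) or deprived of it for the final weeks (VitC+/-), and from MC3T3-E1 cells, a mouse calvarial osteoblast line, cultured for 28 days with (VitC+) or without (VitC-) VitC at 50 µg/ml. The Gulo-/- lists pool 3 femurs a group and the MC3T3-E1 lists 2 cultures. RNA of the VitC+ femurs and of wild-type C57BL/6 femurs of that experiment, 3 libraries each, gave expression levels. Each group gave 1 pooled peak list, so no peak value has a replicate or an error, and the peak comparisons are descriptions without a test.

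The TET dioxygenases oxidise 5-methylcytosine to 5hmC and on to further oxidised bases, with iron and 2-oxoglutarate, and VitC raises their activity. In most tissues 5hmC lies mainly at CpG dinucleotides, in the bodies of transcribed genes and at distal enhancers, and is low at active CpG-island promoters. In bone, Runx2 and Sp7 direct osteoblast differentiation, Alpl encodes the alkaline phosphatase needed for mineral deposition, and Pth1r encodes the receptor of parathyroid hormone.

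The sequences at the strongest kept summits are shown first because they fall into distinct kinds. Each is the 200 bases around the Ctrl summit, read 5′ to 3′ on the plus strand of the GRCm38.p6 (mm10) reference, with CpG dinucleotides in capitals. Snx9, A2m, Smad3, Dlgap2 and Etv6 are the host genes of the 5 kept regions with the highest Ctrl fold enrichment, and all of these summits are intronic. Alpl and Runx2 were added after their values had been seen, as genes of the osteoblast list, and show intronic kept summits of bone genes.
Snx9, chr17:5882988-5883187: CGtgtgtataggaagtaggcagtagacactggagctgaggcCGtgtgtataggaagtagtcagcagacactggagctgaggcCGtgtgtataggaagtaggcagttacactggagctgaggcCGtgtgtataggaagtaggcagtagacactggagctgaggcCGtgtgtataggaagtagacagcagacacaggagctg
A2m, chr6:121652038-121652237: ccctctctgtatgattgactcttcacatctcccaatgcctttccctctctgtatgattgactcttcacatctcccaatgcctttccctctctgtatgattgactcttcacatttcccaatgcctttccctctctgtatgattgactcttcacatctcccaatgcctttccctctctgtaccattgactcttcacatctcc
Smad3, chr9:63715576-63715775: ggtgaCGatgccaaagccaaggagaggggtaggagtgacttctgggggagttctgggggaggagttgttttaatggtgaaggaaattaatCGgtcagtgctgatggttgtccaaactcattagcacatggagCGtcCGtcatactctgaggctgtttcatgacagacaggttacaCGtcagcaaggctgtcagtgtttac
Dlgap2, chr8:14306832-14307031: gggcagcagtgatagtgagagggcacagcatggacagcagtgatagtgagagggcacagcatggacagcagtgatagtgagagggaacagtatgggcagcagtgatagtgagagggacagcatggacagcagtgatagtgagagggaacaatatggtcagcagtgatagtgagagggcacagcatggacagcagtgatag
Etv6, chr6:134207503-134207702: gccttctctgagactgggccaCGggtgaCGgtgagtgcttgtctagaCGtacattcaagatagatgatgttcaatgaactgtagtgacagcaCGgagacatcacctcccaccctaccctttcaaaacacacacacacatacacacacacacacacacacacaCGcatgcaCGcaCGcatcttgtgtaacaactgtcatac
Alpl, chr4:137774603-137774802: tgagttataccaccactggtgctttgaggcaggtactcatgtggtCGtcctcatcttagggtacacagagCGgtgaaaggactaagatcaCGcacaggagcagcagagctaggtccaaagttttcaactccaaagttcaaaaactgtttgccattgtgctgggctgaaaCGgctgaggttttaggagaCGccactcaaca
Runx2, chr17:44791745-44791944: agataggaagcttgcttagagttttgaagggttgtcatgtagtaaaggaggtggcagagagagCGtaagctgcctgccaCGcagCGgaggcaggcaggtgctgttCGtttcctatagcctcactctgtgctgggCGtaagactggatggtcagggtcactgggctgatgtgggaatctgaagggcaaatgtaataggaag
The A2m and Dlgap2 summits held no CpG in these 200 bases and consisted of short units in tandem. Snx9 was also a tandem repeat, with 5 CpG, 1 in each copy. Smad3, Alpl and Runx2 held 5 CpG each and Etv6 held 7, in sequence that was not a tandem repeat by the measure used below.

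The kept regions were 51.1% of the strong Ctrl regions, a share that the rule sets and from which nothing further is read. With 1 pooled list per group no error can be given for it. They covered 134 Mb, against 36.3 Mb for weak and 28.2 Mb for lost regions. Seen from the Tet1/2 cKO list, 75796 of the 82413 peaks over the limit (92.0%) lay on a strong Ctrl region, and 99.1% lay on a Ctrl peak of any strength. Peaks over the limit that were present in the Tet1/2 cKO list alone were therefore few.

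In the Ctrl list the kept regions were wide, with a median of 1491 bp (quartiles 921 and 2476, range 290 to 49876). In the Tet1/2 cKO list the peaks on them had a median summed width of 885 bp (quartiles 569 and 1519, highest 41140). A single Tet1/2 cKO peak lay on 57929 of the regions (87.9%), and 7994 (12.1%) had broken into 2 or more peaks, up to 15. In 60300 regions (91.5%) the Ctrl width was the larger, and the median share of a region covered by Tet1/2 cKO peaks was 68.8%. Over all kept regions together, 62.9% of the Ctrl length was covered. Weak regions had a median Ctrl width of 1051 bp and lost regions 680 bp, and all 521 strong regions wider than 10 kb were kept.

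Fold enrichment over the local background differed less between the lists than width, which the rule favours. Its limit on the Tet1/2 cKO -log10 q removes regions of low Tet1/2 cKO fold and sets no limit on width. Where several Tet1/2 cKO peaks lay on a region, the highest fold was taken. The median fold was 5.61 in the Ctrl list (quartiles 4.57 and 6.98, range 1.86 to 23.1) and 5.05 in the Tet1/2 cKO list (quartiles 4.36 and 6.23, highest 41.5). The ratio of Tet1/2 cKO to Ctrl fold had a median of 0.934 (quartiles 0.790 and 1.09). It was below 1 in 40162 regions (60.9%) and below 0.5 in 654 (0.992%). Weak and lost regions had lower Ctrl folds, with medians of 4.32 and 3.93. Summits stayed in place, with a median distance of 56 bp between the Ctrl and the Tet1/2 cKO summit.

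**Figure D1:**
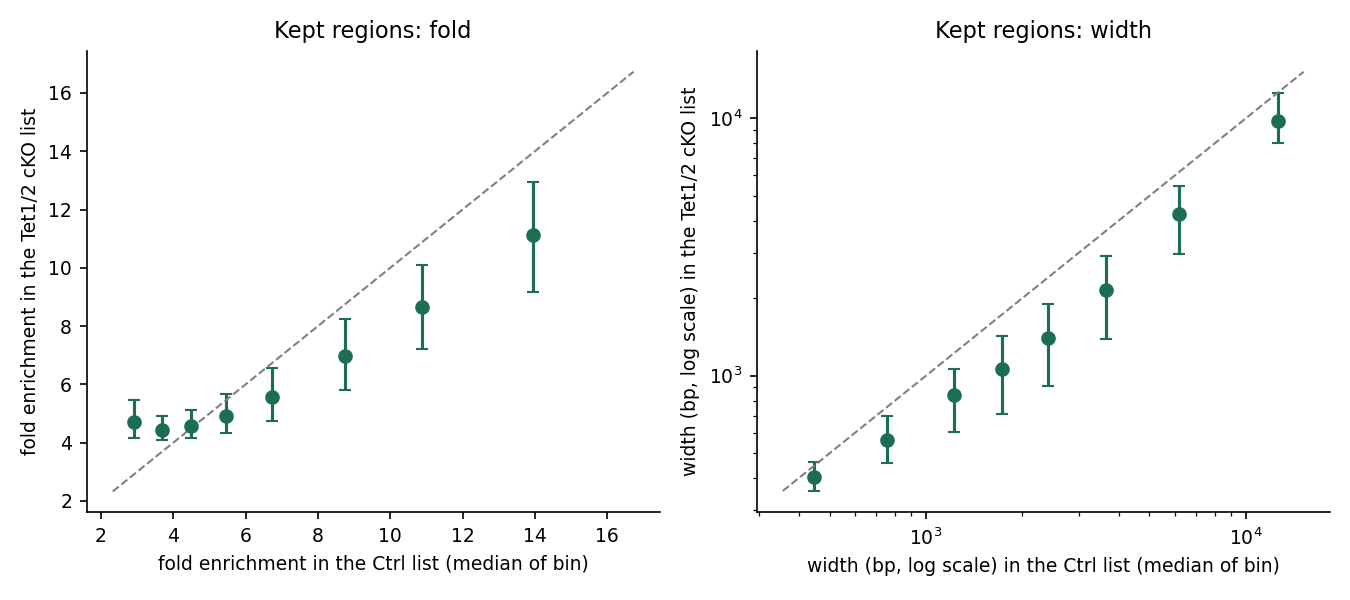
Fold enrichment (left) and width in bp on log scales (right) of kept regions in the Tet1/2 cKO list against the Ctrl list, where points are medians and bars quartiles of regions binned by their Ctrl value and the dashed line marks equality. The median fold is 5.61 in the Ctrl list and 5.05 in the Tet1/2 cKO list, the 3 lowest fold bins lie above the line (medians of 3.69 and 4.43 at a Ctrl fold of 3 to 4) and the others below it, while median widths lie below the line in each bin.

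The lists differed in their background level, and this bears on each of these values. The pileup at each summit was recovered from the fold and the p-value. The median background at a summit was 10.7 fragments in the Ctrl list and 3.45 in the Tet1/2 cKO list, a ratio of 3.102. At kept regions the median pileup was 68.5 fragments in Ctrl and 22.6 in Tet1/2 cKO, while the pileup relative to background was 6.04 and 6.23. With the Ctrl fragments scaled down to the Tet1/2 cKO background, 61.3% of the strong Ctrl regions would still reach the -log10 p of 6.90 that a -log10 q of 5 needs. This held for 82.9% of the kept, 49.6% of the weak and 29.3% of the lost regions. The lower background and the genotype cannot be told apart with 1 list per group.

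The share kept rose steeply with the strength of the Ctrl peak. It was 20.7% for a -log10 q of 10 to 15, 37.8% for 15 to 20, 60.4% for 20 to 30, 87.3% for 30 to 50 and 98.5% for 50 or more, and all 775 regions with a -log10 q of at least 100 were kept. The median ratio of folds ran the other way, from 1.17 in the weakest bin through 1.04 and 0.918 to 0.832 and 0.801 in the strongest. In the weakest bin only regions with a high Tet1/2 cKO fold could pass the limit, so this course is in part set by the rule. Regions just outside the Ctrl limit (-log10 q of 9 to 10) had a median width of 669 bp and a median Ctrl fold of 3.37, against 737 bp and 3.53 just inside it (10 to 11). Just outside the Tet1/2 cKO limit (best -log10 q of 4 to 5) the median Tet1/2 cKO fold was 3.65, and just inside it (5 to 6) 4.09.

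**Figure D2:**
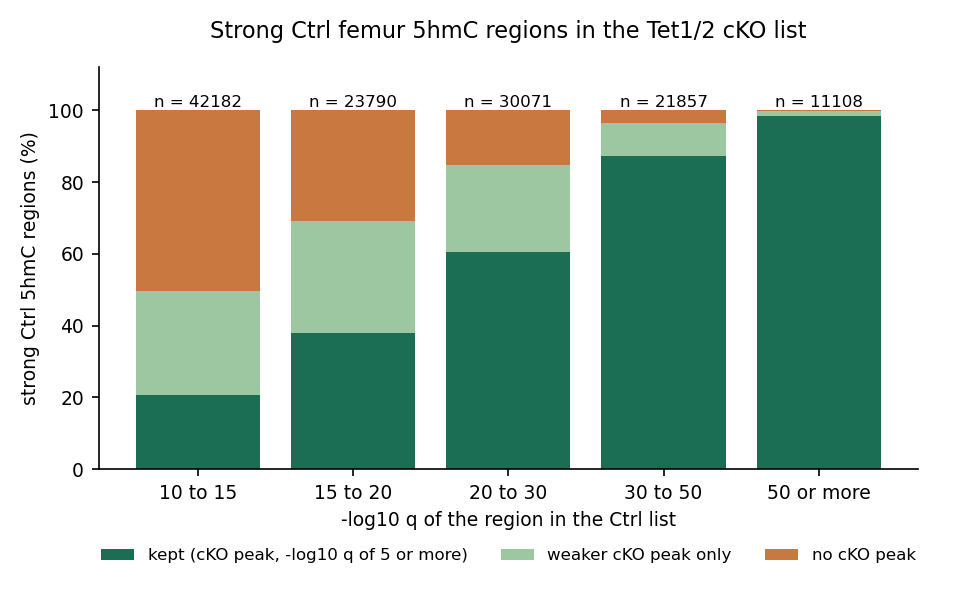
Share in percent of strong Ctrl 5hmC regions that were kept, met only weaker Tet1/2 cKO peaks or were lost, by the -log10 q of the region in the Ctrl list. The kept share rises from 20.7% in the weakest bin to 98.5% in the strongest, and n is the number of regions in each bin.

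The strongest kept regions lay in introns of genes with varied roles. The kept region of highest Ctrl fold, chr17:5878924-5886076 in Snx9, which encodes a sorting nexin of endocytosis, had folds of 23.1 in Ctrl and 10.9 in Tet1/2 cKO over 7153 bp. A 927 bp region in A2m, which encodes the protease inhibitor alpha-2-macroglobulin (chr6:121651915-121652841), had folds of 20.5 and 16.6. In Smad3, which encodes a transducer of TGF-beta signals, a region of 12194 bp (chr9:63714380-63726573) had folds of 18.9 and 11.8. These were followed by regions in Dlgap2 (18.8 and 15.99), Etv6 (18.5 and 9.19), Cnot2 (17.9 and 11.999), Pik3r1 (17.8 and 15.3), Cblb (17.6 and 11.0) and Arid1b (17.6 and 9.96). An intergenic region 59.2 kb from the start of Ezh2, the gene of the H3K27 methyltransferase, had folds of 18.3 and 18.5. Of these 10 regions, 9 had a lower fold in the Tet1/2 cKO list. They were chosen for a high Ctrl fold, which by itself favours a lower value in another list, so nothing is read from this count. The Ezh2 region was not in the peak lists of Gulo-/- femurs although it was in both MC3T3-E1 lists.

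The widest kept region spanned 49876 bp in an intron of Lifr, the receptor gene of leukaemia inhibitory factor (chr15:7147600-7197475). In Tet1/2 cKO it had broken into 15 peaks of 41140 bp in all, with folds of 12.9 in Ctrl and 9.68 in Tet1/2 cKO. Genes at the widest regions were chosen after their values had been seen. Wide regions followed in Mical3 (36418 bp), beyond Klf14 (36003 bp), and in Mtss1 (32992 bp), Zfhx3 (32287 bp), Foxn3 (31170 bp) and Trio (30694 bp). Tet1/2 cKO peaks covered between 55.0% and 92.9% of the 12 widest regions. Each of these 12 met a peak in every other 5hmC list. Those lists hold 253424 to 399599 peaks, and regions this wide readily meet one by 1 bp, so nothing is read from these overlaps. The fold was higher in Tet1/2 cKO than in Ctrl at Mical3 (13.6 and 14.2) and at the region nearest Klf14 (13.6 and 14.7), and at 8 of these 12 regions in all.

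Most kept regions were intronic. By their midpoint, 63.7% lay in introns, 30.2% between genes, 3.99% in exons and 2.12% within 1 kb of a transcription start site (TSS). Lost regions lay in introns less often (55.8%) and in exons more often (6.90%), with 2.09% at promoters. Among regions with a Ctrl -log10 q of 10 to 15, by contrast, introns held 54.4% of kept and 55.0% of lost regions, so the intron difference was not seen at low strength, while the exon difference was (3.16% and 6.37%). Median GC content was 46.4% in kept and 45.2% in lost regions, and CpG density 1.35 and 1.46 per 100 bp.

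Of 20780 protein-coding genes on these chromosomes, 13544 (65.2%) had the midpoint of a kept region within 30 kb of the TSS, 2375 had strong regions of which none was kept, and 4861 had no strong region. Genes near kept regions were the more highly expressed in femur. In wild-type and VitC+ femurs of the Gulo-/- experiment the median was 4.88 and 5.08 RPKM (reads per kb of transcript, scaled to library size) near kept regions, 1.12 and 1.28 where no strong region was kept, and 0 where there was no strong region. To set groups of regions of unequal strength side by side, a standardised share was computed, which is the share that would be kept if each bin of Ctrl -log10 q in the group had the kept share of all strong regions. Inside genes over 100 RPKM 59.1% of strong regions were kept, close to the standardised 59.3%, and at 1 to 10 RPKM 53.9% were kept against 54.4%. In genes under 0.1 RPKM, 45.6% were kept against 41.1%.

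Osteoblast genes had the highest share of kept regions among the cell type lists. Osteoblasts are among the cells in which Prrx1-Cre deletes Tet1 and Tet2. The DNA came from whole femurs, and which cells carried the signal at these regions was not tested. All 23 osteoblast and osteocyte genes on these chromosomes had a kept region within 30 kb, and 20 of them also had a lost one. Of their 217 strong regions, 146 (67.3%) were kept, against 56.9% standardised and 52.4% over all genes. Of Bone60, bone-selective genes chosen by the study, 53 of 57 had a kept region and 41 a lost one. Of their 496 strong regions, 301 were kept (60.7%, standardised 54.9%). Neighbours share regions within these lists, as with Bglap and Bglap2 or Dmp1, Ibsp, Mepe and Spp1, so list members are not independent.

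The other mesenchymal lists did not show this. Kept shares were 44.9% for 20 chondrocyte genes (standardised 48.6%), 48% for 20 marrow stromal and fibroblast genes (50.6%) and 44.3% for 20 adipocyte genes (46.6%). Lists of cells outside the Prrx1 lineage lay on both sides of their standardised shares. Monocyte and macrophage genes had 60.9% (53.9%), osteoclast genes 58.4% (50.4%), skeletal muscle genes 57.7% (46.5%), megakaryocyte genes 54.3% (55.1%), T and NK cell genes 54.2% (49.9%), endothelial genes 52.9% (46.7%), haematopoietic stem and progenitor genes 52.2% (47.4%), B-cell genes 51.7% (48.3%), erythroid genes 48.8% (45.3%) and neutrophil genes 41.7% (44.4%). The gap to the standardised share was 11.2 points for skeletal muscle genes, on 71 strong regions, and 10.4 points for osteoblast genes. Together, 77 of 83 bone list genes (92.8%) and 102 of 150 marrow list genes (68.0%) had a kept region nearby, the latter close to the 65.2% of all genes. A lost region lay nearby for 78.3% of bone list, 58% of marrow list and 56.7% of all genes. The bone lists thus stood above the marrow lists for lost regions too. Of the strong regions near bone and marrow list genes, 54.0% (51.8%) and 52.9% (49.8%) were kept, so per region these lists were close.

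**Figure D3:**
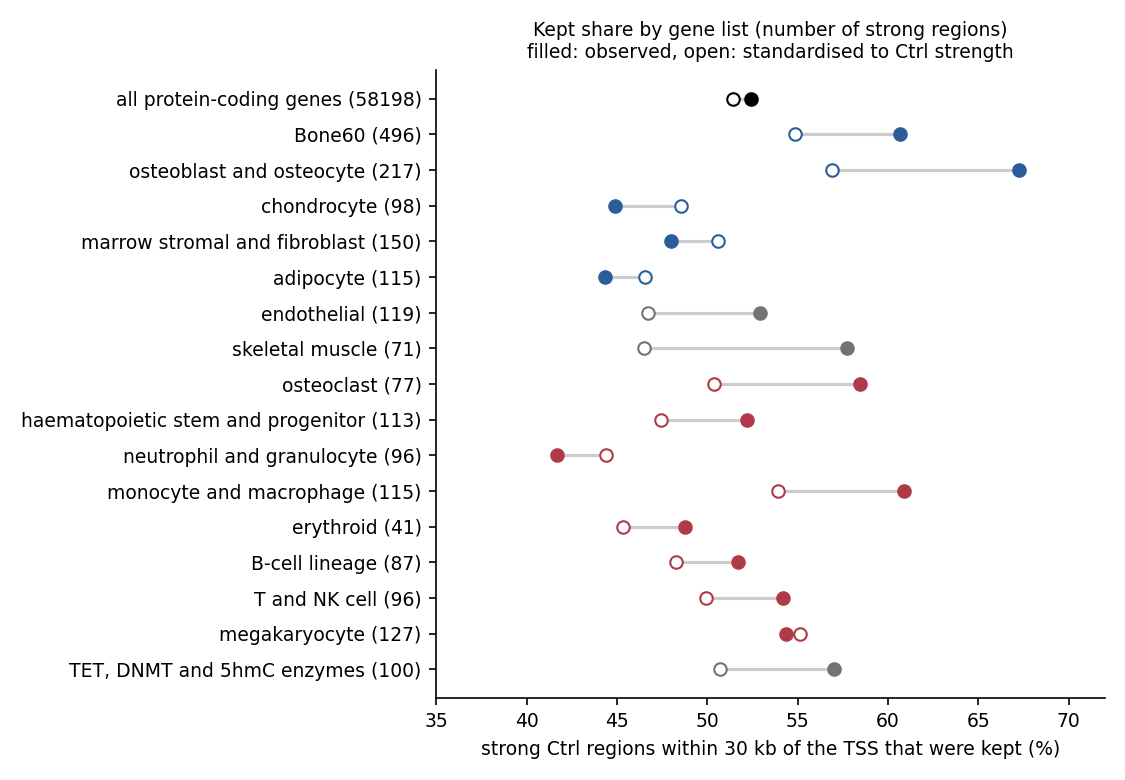
Percent of strong Ctrl regions within 30 kb of the TSS of each list's genes that were kept (filled) and the same standardised to Ctrl strength (open), for bone (blue), marrow (red), other lists (grey) and all protein-coding genes (black), with the number of strong regions in brackets. The osteoblast and osteocyte list has the highest share at 67.3%, and the neutrophil list the lowest at 41.7%.

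Among osteoblast genes, Mepe, a matrix phosphoglycoprotein gene of osteocytes, had 14 kept of 15 strong regions, Pth1r 12 of 14, Sparc, the gene of the matrix protein osteonectin, 11 of 12, and Ibsp, the bone sialoprotein gene, 10 of 12. Ibsp and the next 4 genes were added after their values had been seen. Alpl had 9 of 11, Col1a1, the gene of the main collagen chain of bone, 8 of 11, and Runx2 6 of 11, while Dlx3 had 3 of 9. At Pth1r the strongest of them, chr9:110720256-110725431, had folds of 11.9 in Ctrl and 10.2 in Tet1/2 cKO, and its 5176 bp met 3966 bp of Tet1/2 cKO peak. The Alpl region whose summit is printed above had folds of 8.49 and 6.44, and that of Runx2 13.9 and 11.8. In Phospho1, a phosphatase gene of mineralising cells with 10 kept of 17 regions, an exonic region had folds of 8.65 and 9.96.

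In marrow lists, Spi1, the myeloid PU.1 factor, had 11 kept of 16 strong regions, Irf8 10 of 12, Klf4 9 of 12, Itgb3 9 of 13, and Runx1, Lyl1 and Kit, of blood stem and progenitor cells, had 8 of 11, 8 of 10 and 8 of 12. Among neutrophil genes, Ngp had 4 of 12 where its Ctrl strengths would give 5.43, Ltf 4 of 11 (6.87), Fcnb 5 of 11 (4.97) and Cxcr2 6 of 10 (6.65). A region near Ngp, chr9:110443745-110445625, had the higher fold in Tet1/2 cKO, at 14.1 against 6.72 in Ctrl. The Tet1/2 cKO fold was not the lower one in 25761 of all 65923 kept regions. Among genes with strong regions of which none was kept, named after their values had been seen, were Mpo (3 strong regions), Flt3 (3), Gata2 (4), Tnfrsf11a, which encodes the receptor RANK of osteoclast precursors (2), the chondrocyte gene Ucma (6) and Pparg (2). The genes with the most kept regions belonged to no list: Ctdsp2 (16 of 19), Socs3 (16 of 18), Bicral (15 of 18), Sema4b (15 of 16) and Frs2 (15 of 18).

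The genes of the TET enzymes differed among themselves. Tet1 had 4 strong regions within 30 kb, of which 2 were lost and none was kept, where its Ctrl strengths would give 1.40. Tet2 and Tet3 each had 7 of 9, where their Ctrl strengths would give 4.37 and 6.05. The strongest region of Tet3, 10807 bp in an intron, had folds of 10.7 and 6.93, and that of Tet2 8.33 and 5.83. Over the 14 TET, DNMT and related genes, 57% of strong regions were kept (standardised 50.7%), among them 9 of 12 at the methyltransferase gene Dnmt3a.

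Long 5hmC domains over gene bodies were compared by the share of their strong Ctrl length that Tet1/2 cKO peaks covered. In 1714 genes with at least 20 kb of strong Ctrl length this share had a median of 45.2% (quartiles 35.2 and 56.9, range 4.60 to 97.4). The 5 highest were Snx18 (97.4%), Cep295nl (95.3%), Pmepa1 (92.2%), Ski (91.7%) and Foxo3 (90.0%), and the 5 lowest Exoc6b (4.60%), Man1a2 (6.77%), Frmd5 (7.43%), Xpot (8.79%) and Mllt3 (10.7%). Regions were assigned to a gene by their midpoint, and the 26540 bp of strong length at Cep295nl reached well beyond that gene of 10141 bp. The strengths of the Ctrl regions in these genes differed, with standardised kept shares of 59.6% to 98.5% in the highest and 31.1% to 52.02% in the lowest. These and the genes named next were chosen after their values had been seen. Alpl had 81.0%, with 12 of 14 strong regions kept, Runx1 61.0% and Runx2 59.0%, with 55 of 67. Below the median were the chondrocyte factor Sox5 (17.6%), Bcl11b (19.6%), the fibronectin gene Fn1 (21.0%) and the B-cell factor Ebf1 (28.4%). Of the list genes with such domains, 5 of 12 bone genes, 8 of 15 marrow genes and 6 of 10 Bone60 genes lay above the median of all, so neither bone nor marrow genes stood to one side.

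Other 5hmC lists, which the rule did not use, met kept regions more often than lost ones. Peaks overlapped 78.7% of kept, 65.6% of weak and 50.7% of lost regions in MC3T3-E1 VitC+ cells, and 56.0%, 37.4% and 21.1% in VitC- cells. In femurs the shares were 69.1%, 59.8% and 52.4% for VitC+, and 60.04%, 50.1% and 43.2% for VitC+/- mice. All 4 of these lists met 31.8% of kept and 8.63% of lost regions, and none met 5.47% and 23.3%. Of kept regions present in MC3T3-E1 VitC+ cells, 60.4% were also present without VitC, against 29.9% of lost regions. In femurs, where 84.8% of the kept regions found in VitC+ mice were also found in VitC+/- mice, the corresponding 78.1% of lost regions was closer.

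Kept regions are wider, so the same was counted in windows of 300 bp at the Ctrl summit, an alternative added after the data had been seen. The shares were then 70.8% of kept and 46.0% of lost summits in MC3T3-E1 VitC+ cells, and 37.5% and 15.6% in VitC- cells. In femurs they were 52.1% and 44.5% for VitC+, and 40.5% and 34.5% for VitC+/-. Within bins of Ctrl strength the femur order turned from a -log10 q of 20 upwards. At a -log10 q of 30 to 50 peaks of VitC+ femurs lay on 54.8% of kept and 58.6% of lost summits, and those of VitC+/- femurs on 41.5% and 48.1%. The MC3T3-E1 VitC- order held in each bin, at 45.8% and 16.7% for 10 to 15 and 33.9% and 11.9% for 30 to 50.

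Histone marks of MC3T3-E1 cells, for which the labels and the methods give different culture times, were compared in the same way. H3K27me3 peaks met 9.05% of kept and 9.38% of lost regions with VitC and 12.6% and 12.8% without it. These pooled shares hide a difference within bins of Ctrl strength. Without VitC the shares were 18.2% of kept and 13.4% of lost regions at a -log10 q of 10 to 15, 16.3% and 12.5% at 15 to 20, 13.5% and 10.8% at 20 to 30, and 10.5% and 9.55% at 30 to 50. With VitC they were 12.5% and 9.79%, 11.5% and 9.04%, 9.87% and 8.44%, and 7.67% and 7.03%. In these bins kept regions thus met H3K27me3 peaks more often than lost regions. Widths were not matched in this count, which favours the wider kept regions. By the share of length covered, the values without VitC were 13.2% of kept and 11.1% of lost at 10 to 15, and 6.49% and 6.28% at 30 to 50. With VitC they were 7.85% and 7.20% at 10 to 15, and 3.92% and 3.99% at 30 to 50. By length the difference was thus small at 30 to 50, and it turned there with VitC. H3K9me3 peaks met 1.90% and 1.89% with VitC and 4.51% and 3.87% without it, and at a -log10 q of 10 to 15 1.80% and 1.80%, and 3.56% and 3.64%. Both marks are repressive, and most kept regions lay outside them in these cells.

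**Figure D4:**
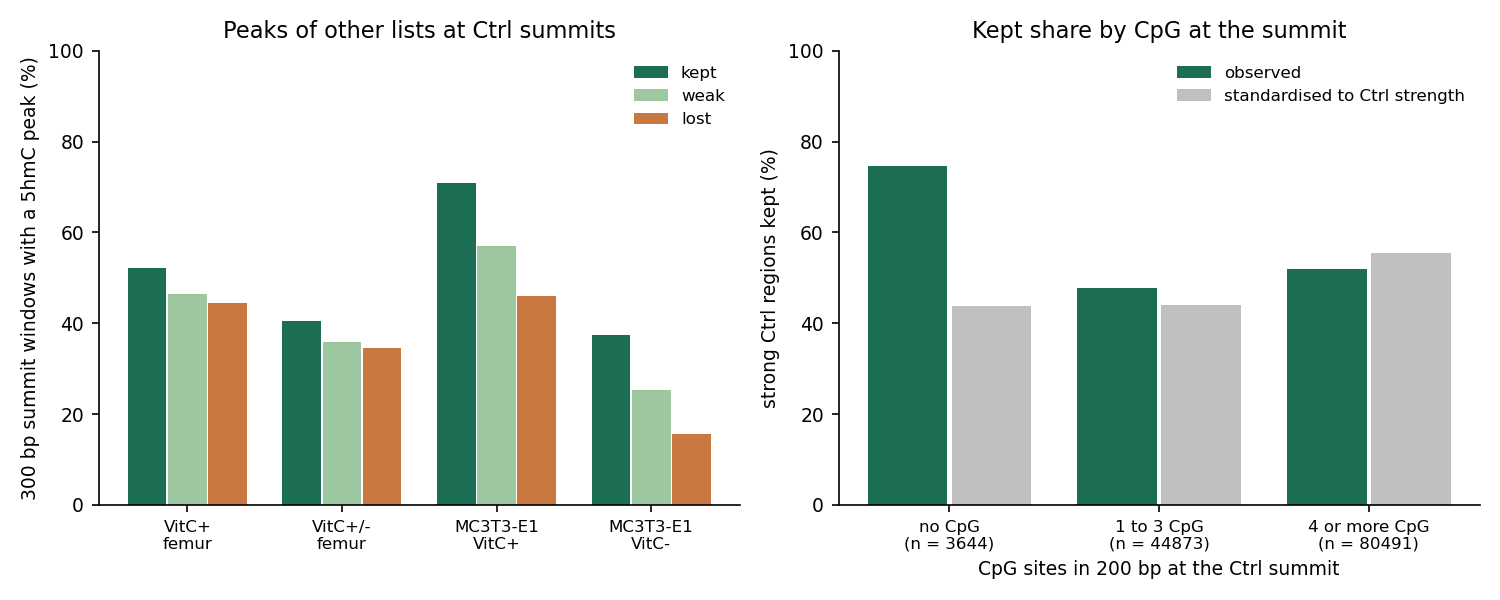
Left, percent of 300 bp windows at Ctrl summits of kept, weak and lost regions that meet a 5hmC peak of 4 other lists, and right, percent of strong Ctrl regions kept by the number of CpG in 200 bp at the summit, observed (green) and standardised to Ctrl strength (grey). The MC3T3-E1 VitC- list separates kept (37.5%) from lost (15.6%) windows most in ratio, and summits without CpG are kept in 74.6% against a standardised 43.8%.

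The sequence at the summit set a small group of kept regions apart. Of 3644 strong regions with no CpG in the 200 bp at the Ctrl summit, 2717 were kept (74.6%, standardised 43.8%). With 1 to 3 CpG 47.7% were kept (43.9%), and with 4 or more 51.9% (55.4%). Summits without CpG were 4.12% of kept, 1.94% of weak and 1.07% of lost regions. Kept regions of this kind were narrow in Ctrl, with a median of 784 bp, and their fold was not lower in Tet1/2 cKO in 77.7%, with a median ratio of 1.16 against 0.893 for summits with 4 or more CpG. Part of this gap goes with strength, since the ratio falls with the Ctrl -log10 q. Within bins, an alternative added after the data had been seen, the ratios were 1.22 without CpG and 1.16 with 4 or more at 10 to 15, 1.13 and 1.03 at 15 to 20, 1.09 and 0.905 at 20 to 30, 1.095 and 0.819 at 30 to 50, and 1.14 and 0.792 at 50 or more. Peaks in MC3T3-E1 VitC- cells met 82.9% of kept regions without CpG at the summit and peaks in VitC+ cells 42.7%. This was the reverse of kept regions with 4 or more CpG (50.6% and 81.9%). Lost regions showed the same reversal, at 63.3% and 23.2% without CpG and 16.2% and 48.7% with 4 or more. The reversal thus went with the lack of CpG and was not particular to kept regions.

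Tandem repeats were also kept often. A summit was counted as one where at least 80% of its 200 bases matched the same sequence shifted by some step of 10 to 60 bp, as at A2m, Dlgap2 and Snx9 above. Of 1229 such regions 1029 were kept (83.7%, standardised 56.4%), with a median ratio of folds of 1.14. Within bins of strength the ratio was 1.21 for tandem repeats and 1.17 for other summits at 10 to 15, and 1.13 and 0.798 at 50 or more. They made up 1.56% of kept and 0.251% of lost regions. Runs of CACACACACACACACACACA, searched on both strands in 300 bp at the summit, were found in 4.07% of kept and 3.32% of lost regions. Reads from repeats can be hard to place, and the part of mapping in these values was not tested. Without the tandem repeats, 50.8% of strong regions were kept.

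Femur RNA was measured in 3 libraries per group, with 28597536 to 49788434 reads in genes. Gene counts include exons outside the floxed parts and cells outside the Prrx1 lineage, so they do not check the deletion. Tet1 had 374, 420 and 435 normalized counts in Ctrl and 485, 415 and 442 in Tet1/2 cKO. Tet2 had 2236, 2512 and 2251 in Ctrl and 2970, 1851 and 2351 in Tet1/2 cKO. For Tet3 the values were 3788, 4653 and 3434 against 4477, 3657 and 4069. The groups overlapped for all of these genes.

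No gene passed the test between Tet1/2 cKO and Ctrl (limma, 16780 genes tested, 0% called at an adjusted p under 0.05), and edgeR called 0 as well. At an unadjusted p under 0.05 there were 847 genes (5.05%), of which 618 lay near kept regions among 11497 tested there (5.38%). DESeq2 on whole reads called 11 genes (0.0654%), and 6 of these lay near kept regions. The median log2 fold change (Tet1/2 cKO minus Ctrl) was -0.011 near kept regions and -0.0072 over all genes, 0.04 near strong regions of which none was kept and 0.05 near lost regions alone. In the 430 tested genes with 10 or more kept regions it was -0.20. These genes also have many strong Ctrl regions and include bone genes such as Mepe, Pth1r and Sparc. They were not compared with genes of a like number of strong regions.

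Genes of the bone lists near kept regions had lower counts in Tet1/2 cKO, and none passed the limma test. Of the 23 osteoblast genes, 20 had negative log2 fold changes (median -1.18), and in 18 each Tet1/2 cKO library was below each Ctrl library, against 10.0% of all genes tested. For the 53 Bone60 genes the median was -0.94, with 50 lower and 34 apart in this way. The median was -2.42 for 16 chondrocyte, -0.61 for 19 stromal, -0.82 for 18 adipocyte, -0.60 for 14 endothelial and -3.67 for 15 skeletal muscle genes. DESeq2's calls included the chondrocyte gene Matn3 (5 of 6 strong regions kept, log2 fold change -5.64, DESeq2 adjusted p = 0.0101). Its normalized counts were 48.6, 482 and 35.6 in Ctrl and 0, 3.80 and 7.68 in Tet1/2 cKO, so the size rests much on Ctrl replicate 2. Ucma, also of chondrocytes, was another (0 of 6 kept, -7.16, DESeq2 adjusted p = 0.0212). Calls outside the lists, named after their values had been seen, had lower adjusted p. They included Calml3 (1 of 6 kept, -3.91, DESeq2 adjusted p = 1.72e-05) and Serpina1a (0 strong regions, -20.7, DESeq2 adjusted p = 1.72e-05). Another was Car12 (10 of 11 kept, -2.58, DESeq2 adjusted p = 0.0013). Of the 11 calls 1 was higher in Tet1/2 cKO, Slfn9 (1.52). On simulated data DESeq2 made 43 false calls, so its calls are weak evidence. Marrow lists had medians of 0.65 (neutrophil, 13 of 13 higher), 0.31 (erythroid), 0.13 (megakaryocyte), 0.02 (stem and progenitor), -0.19 (T and NK cell), -0.23 (monocyte and macrophage), -0.34 (B-cell) and -0.38 (osteoclast), and the TET and DNMT list -0.02.

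The make-up of the libraries, from flushed femurs, moved with these values. Summed normalized counts of the whole osteoblast list were 1231900 to 1551220 in Ctrl and 394746 to 864114 in Tet1/2 cKO. Those of the neutrophil list were 942385 to 1472070 and 1348250 to 3021260, and those of the skeletal muscle list 181422 to 766415 and 5911 to 677834, with Tet1/2 cKO replicate 3 alone at the high end. No gene of these lists was at 0 in all 6 libraries. The part of muscle and marrow content in the bone gene values was not tested, and in bulk femur fewer cells of a type and less RNA per cell cannot be told apart.

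Alpl had 4966, 5863 and 6964 normalized counts in Ctrl and 1758, 3599 and 2402 in Tet1/2 cKO. The groups did not overlap, and the log2 fold change was -1.25 (SE 0.56, limma adjusted p = 0.723). Pth1r had 2416, 4277 and 3202 in Ctrl and 753, 1657 and 1247 in Tet1/2 cKO, with a log2 fold change of -1.47 (SE 0.44, limma adjusted p = 0.723). Both genes thus had lower counts in each Tet1/2 cKO library while 9 of 11 and 12 of 14 of their strong 5hmC regions were kept. Sparc, with 11 of 12 kept, had 136516, 110513 and 152508 against 42495, 101811 and 67986 (log2 fold change -0.99, limma adjusted p = 0.723), again without overlap. Mepe, with 14 of 15 kept, had 2200, 550 and 2160 against 1490, 2482 and 820, and these groups overlapped (log2 fold change 0.07, limma adjusted p = 0.989). Runx2 was between them, with 3488, 4856 and 4799 against 3964, 3397 and 3579 (log2 fold change -0.25, limma adjusted p = 0.788).

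**Figure D5:**
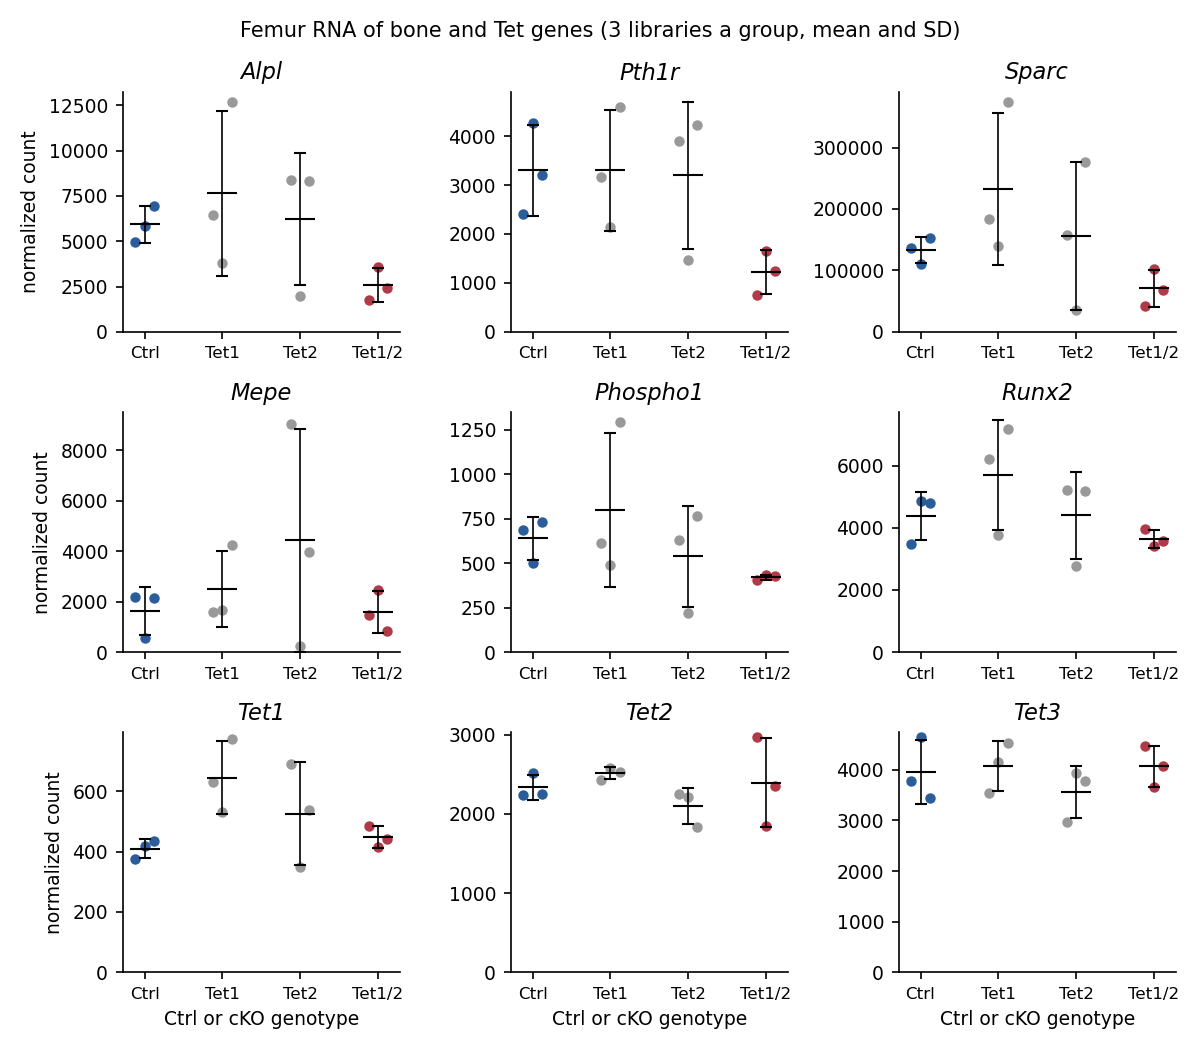
Normalized counts in femur RNA of 6 bone genes near kept regions and of Tet1, Tet2 and Tet3, with 1 point per library in each of the 4 genotypes and bars for the mean and SD of 3 libraries. The Tet1/2 cKO points of Alpl, Pth1r, Sparc and Phospho1 all lie below the Ctrl points, and those of Mepe, Runx2 and the Tet genes overlap them.

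Genes hosting the strongest kept regions showed no common course in RNA. Snx9 had 1764, 878 and 1223 normalized counts in Ctrl and 1483, 1379 and 1250 in Tet1/2 cKO (log2 fold change 0.14, limma adjusted p = 0.847). A2m varied most, with 887, 6694 and 1341 against 747, 1322 and 530 (-1.31, limma adjusted p = 0.723), and without Ctrl replicate 2 its log2 fold change was -0.44. Smad3 had 2661, 3242 and 2908 against 2086, 2658 and 2800 (-0.23, limma adjusted p = 0.815). Etv6 had 3981, 2675 and 3431 against 6441, 4469 and 4001, without overlap and higher in Tet1/2 cKO (0.55, limma adjusted p = 0.723). Dlgap2 was under the filter on low values.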

How the data were processed

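Femur and MC3T3-E1 hMeDIP-seq and ChIP-seq peak lists and femur RNA-seq were used, while input DNA and VitC+/- RNA were not used here. The authors aligned hMeDIP reads to mm10 with BWA 0.7.15.1 and ran MACS2 on the pooled replicates of a group, with an FDR of 0.05 by their methods. The fold enrichment is the ratio over local background deposited by the authors, the -log10 p and q values are as deposited, and the deposited pileup signal exists for MC3T3-E1 lists. That pileup was recovered within 1% from fold and p in 100% of those peaks, and the same formula gave the femur pileups. The normalized count signal deposited for Tet femurs is gene counts divided by DESeq2 size factors. The RPKM values of Gulotm1Mae and wild-type femurs are as deposited by the authors. The depth of the pooled hMeDIP lists is not given in the sources used here, and the labels give 28 days of culture for histone lists where the methods give a shorter time.

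Regions were annotated by their midpoint, with promoters within 1 kb and nearby genes within 30 kb of the TSS, on the GRCm38.p6 reference. Genes reaching a normalized count of 10 in 3 or more libraries entered limma 3.58.1 (R 4.3.3) on log2(normalized count + 1), all 12 libraries in 1 fit, with Benjamini-Hochberg adjustment at 0.05. Fold changes are on that scale and understate changes of low genes. Labels do not state that libraries of a group came from separate litters, and p-values measure the spread between these libraries. Whole reads recovered from the normalized counts (100% of values in 11 libraries) went into edgeR 4.0.16 and DESeq2 1.42.0 as alternatives, without Tet1 cKO replicate 3, whose divisor was near 1. On simulated data for Tet1/2 cKO against Ctrl, over 16817 genes, limma recovered 4 of 67 genes changed 2-fold, 28 of 67 changed 3-fold and 60 of 66 changed 8-fold, with 3 false calls. For the same genes edgeR recovered 3, 24 and 59 with 0 false calls, and DESeq2 13, 52 and 65 with 43 false calls.

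Genes named are those nearest to the 10 kept regions of highest Ctrl fold, the 5 with the most kept regions, up to 4 per cell type list, Tet1 to Tet3 and any past the RNA threshold, with others marked in the text as chosen after their values had been seen. Printed sequences were to be taken at the middle of a region and were moved to the summit, since regions reach up to 49876 bp. The members and the lists were chosen with earlier results of these data known, and Bone60 was chosen by the study and related to its own samples, so neither is independent evidence. Values standardised to Ctrl strength were added after the data had been seen. Alternatives tried were other limits, overlaps, distances, pseudocounts, filters, scalings and tools, and leaving out each library.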

Additional observations from a re-analysis of the deposited data

How the results depend on the processing

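Requiring a -log10 q of at least 10 in Tet1/2 cKO left 28001 kept regions (21.7%), with median Ctrl and Tet1/2 cKO widths of 2001 and 1235 bp and folds of 6.89 and 6.47, a GC content of 46.5%, 1.36 CpG per 100 bp, 72.6% in gene bodies, and 71.1% of bone and 48% of marrow list genes nearby. Taking every Tet1/2 cKO peak gave 73.7% kept, widths of 1318 and 754 bp, folds of 5.08 and 4.43, GC 46.3%, 1.37 CpG per 100 bp, 66.2% in gene bodies and 80% of marrow list genes. A Ctrl limit of 20 gave 76.5% kept, widths of 1767 and 1047 bp, folds of 6.26 and 5.44, GC 46.3%, 1.38 CpG per 100 bp, 70.8% in gene bodies and 83.1% of bone list genes. An overlap of at least 50% of the Ctrl peak gave 37.7% kept, widths of 1273 and 1006 bp, folds of 5.69 and 5.26, GC 46.5% and 84.3% of bone list genes. Within 10 kb and 100 kb of the TSS, 72.3% and 98.8% of bone and 42.7% and 90.7% of marrow list genes had a kept region. The bone share stayed above the marrow share under each of these settings.

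With other lists held to a -log10 q of at least 5, kept regions met VitC+ femur, VitC+/- femur, MC3T3-E1 VitC+ and VitC- peaks in 65.6%, 57.01%, 72.1% and 47.0%, and with an overlap of at least 50% of the region in 29.1%, 18.8%, 55.3% and 19.8%. In 300 bp windows, added after the data had been seen, the shares were 52.1%, 40.5%, 70.8% and 37.5%. For H3K27me3 with and without VitC the stricter limit gave 0.00910% and 0.721% and the larger overlap 5.03% and 8.74%, and for H3K9me3 0.234% and 0.108%, and 0.633% and 1.54%. Many shares therefore depend on the overlap asked for.

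Counts of genes past the RNA threshold were 0 under each limma setting and edgeR, and DESeq2 called 11, of which 6 lay near kept regions. Among named genes near zero change, the sign turned for Tet2 with TMM rescaling (-0.026) and for Mepe with edgeR (-0.057) and DESeq2 (-0.033). On leaving out single libraries the log2 fold change ranged from -0.16 to 0.18 for Tet2, -0.050 to 0.17 for Tet3, -0.59 to 0.48 for Mepe and -0.10 to 0.40 for Snx9. None of these passed the threshold. Whether the replicate numbers pair the samples could not be settled from so few libraries. Correlations between same-numbered libraries were 0.231, -0.121 and 0.175, with 2 of 3 correlating best with their own number. With the replicate block 0 genes passed. A limit is 1 pooled list per group with unequal background.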
